A study of Rattus norvegicus with 18 samples.

Results

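The genes described here are 10 genes by which tissue macrophages are usually recognised or through which they are maintained, measured in dorsal root ganglia (DRG). They were chosen by symbol, as *Aif1*, *Cd68*, *Csf1r*, *Csf1*, *Cd163*, *Mrc1*, *Cx3cr1*, *C1qa*, *C1qb* and *C1qc*. The rule that chose them used no measured values, but earlier results of these data were known. Each symbol matched 1 RefSeq identifier, giving 10 of the 15075 identifiers in the count table, and all 10 passed the filter on low counts in every comparison. The DRG were those of segments C6-C8 in adult Lister Hooded rats, and their poly(A) RNA was sequenced with the ganglia of the treated side of 1 rat making up 1 library. Naïve rats had no surgery and no vector. In bPYX+GFP and bPYX+NT3 rats both corticospinal tracts were cut in the medulla (bilateral pyramidotomy) and an adeno-associated virus of serotype AAV1 was then injected into the forelimb flexor muscles on 1 side, carrying GFP or human prepro-neurotrophin-3 (NT3) under the CMV promoter, which is not restricted to one cell type. Tissue was taken 10 weeks after injury. The injury spares the DRG themselves, and every operated rat also received a vector, so the effects of surgery and of AAV1 cannot be told apart here.

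Macrophages are resident in every DRG, where they lie among the neurons and their satellite glia and around the blood vessels, and they clear debris and respond when the axons of sensory neurons are damaged. Their survival depends on the receptor CSF1R and its ligands CSF1 and IL-34. They are the main source of C1q, whose 3 chains are encoded by *C1qa*, *C1qb* and *C1qc* and together start the classical complement pathway. CD163, which takes up haemoglobin bound to haptoglobin, and the mannose receptor MRC1 mark macrophages that sit around vessels and in connective tissue, whereas the fractalkine receptor CX3CR1 is best known from microglia and monocytes.

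The rats were grouped as the heading of the count table of all rats gives them, 6 to a group. Rats 41, 42, 43, 44, 45 and 49 were naïve, rats 5, 15, 18, 21, 52 and 57 were injured and given GFP, and rats 2, 11, 17, 23, 39 and 40 were injured and given NT3. For 17 of 18 rats the title attached to that rat's own counts names another group, and this grouping was run as an alternative. The groups of the heading gave fold changes close to those the study lists for bPYX+NT3 against bPYX+GFP rats. Among these, the log2 values here were 1.095 for *Arg1*, 1.264 for *Gfap*, 1.126 for *Sprr1a* and 1.444 for *Tgm1*. Between 10057787 and 16002410 read-pairs per rat were counted on genes. Rats 11 and 57 stood apart from the other 16 in the share of reads on no gene (30.8% and 31.7%, against 32.5% to 34.6%) and in the share on more than 1 gene (3.41% and 3.31%, against 2.79% to 3.04%), so results that rest on them are also given without them. Of 14 sensory neuron markers, 12 were in the table and 11 were tested, with a summed level of 12115 to 15934 CPM (reads scaled to the same library total) over the 18 rats. *Snap25*, counted under 1 RefSeq identifier, had at most 10 reads in every rat. The summed levels of markers of other blood cells were 2.83 to 29.8 CPM for T cells, 0.786 to 9.32 for B cells, 30.7 to 309 for neutrophils and 21.9 to 142 for erythrocytes.

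The 250 bases before the transcription start are shown for 4 members, to set the promoters of C1q chains beside those of the lysosomal marker *Cd68* and of *Mrc1*. They are RefSeq sequences of the rat build GRCr8, which is not the build of the counts, and 7 of the 10 members were in the promoter table (*Aif1*, *Csf1* and *C1qc* were not). Capitals mark GAGGAA or its reverse complement TTCCTC, the core of sites bound by PU.1, the transcription factor on which the macrophage lineage depends.
C1qa, chr5:154419934-154420183, minus strand: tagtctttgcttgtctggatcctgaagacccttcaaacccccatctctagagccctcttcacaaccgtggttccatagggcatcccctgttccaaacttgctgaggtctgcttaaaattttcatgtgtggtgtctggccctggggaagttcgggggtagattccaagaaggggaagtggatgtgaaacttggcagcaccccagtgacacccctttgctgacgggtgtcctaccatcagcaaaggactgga
C1qb, chr5:154407828-154408077, minus strand: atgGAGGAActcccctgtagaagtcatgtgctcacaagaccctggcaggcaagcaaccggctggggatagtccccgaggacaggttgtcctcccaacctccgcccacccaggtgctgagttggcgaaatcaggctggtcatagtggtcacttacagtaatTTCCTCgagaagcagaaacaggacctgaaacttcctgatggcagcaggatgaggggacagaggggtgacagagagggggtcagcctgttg
Cd68, chr10:54882442-54882691, minus strand: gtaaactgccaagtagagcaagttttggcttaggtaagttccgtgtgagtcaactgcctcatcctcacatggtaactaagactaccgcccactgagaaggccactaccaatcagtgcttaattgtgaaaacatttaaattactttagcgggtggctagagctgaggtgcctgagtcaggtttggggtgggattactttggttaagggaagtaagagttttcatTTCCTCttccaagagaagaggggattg
Mrc1, chr17:82157475-82157724, plus strand: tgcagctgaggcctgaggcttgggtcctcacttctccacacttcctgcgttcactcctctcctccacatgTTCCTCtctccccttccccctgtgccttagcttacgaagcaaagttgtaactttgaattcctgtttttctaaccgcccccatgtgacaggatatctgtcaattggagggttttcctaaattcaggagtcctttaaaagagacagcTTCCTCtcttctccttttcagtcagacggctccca
On either strand, GAGGAA was found in 4 of the 7 members (*Cd68*, *Mrc1*, *C1qb* and *Csf1r*) and in 23.2% of all 27457 promoters of the same length. The E-box CACGTG was in 0 of 7 members and 5.79% of promoters, and TATAAA was in 0 of 7 members and 13.1% of promoters. These matches describe the letters in these windows and nothing about binding.

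**Figure D1:**
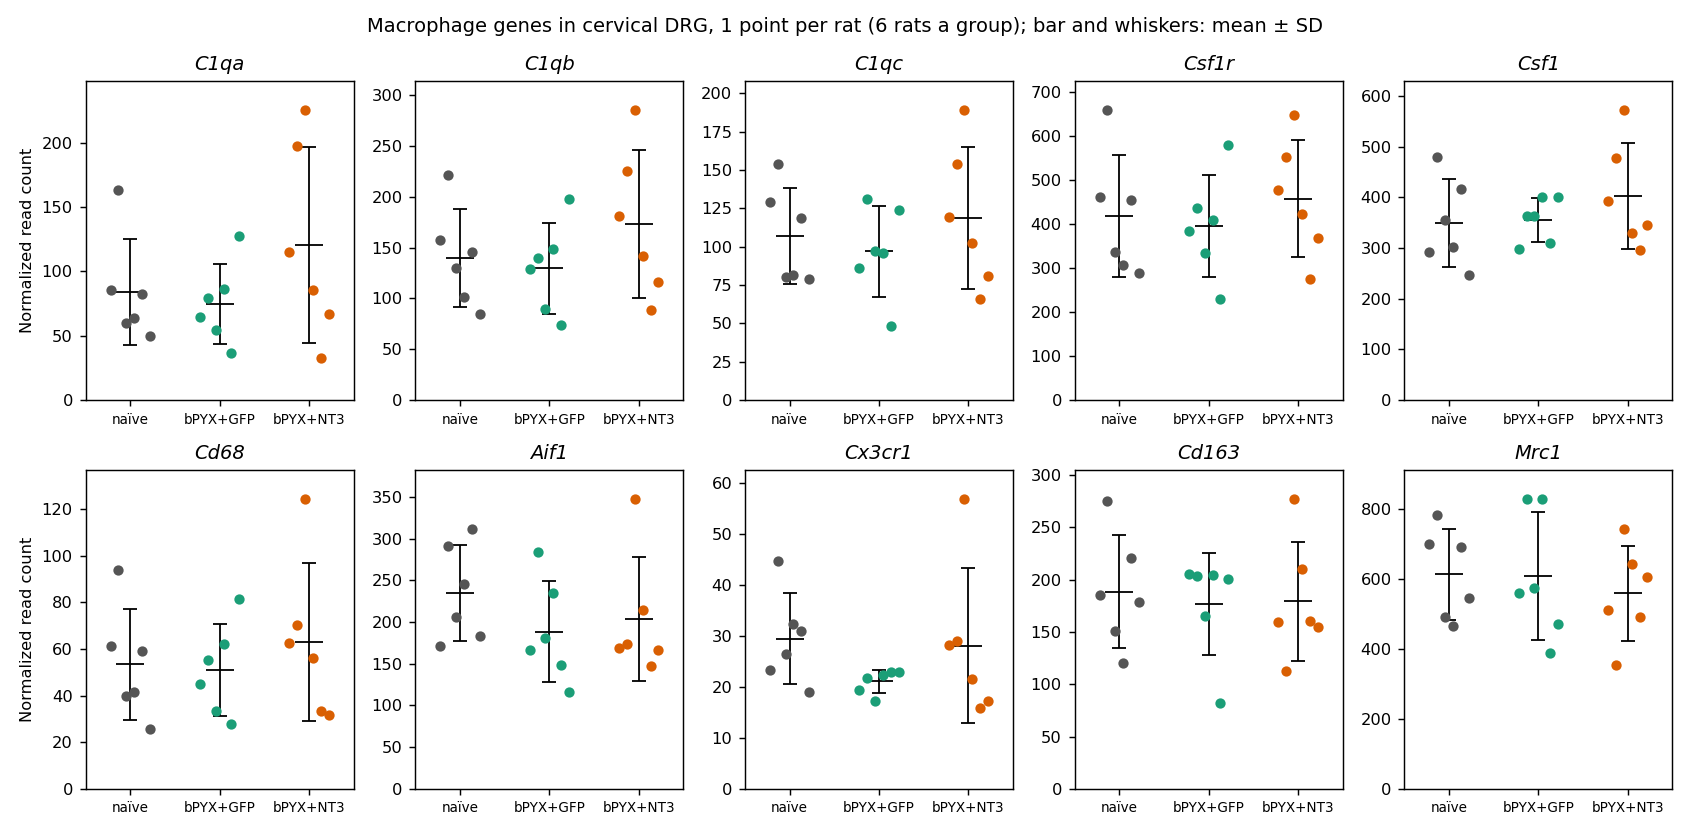
Level of each of the 10 macrophage genes in each of the 18 rats, in normalized counts on linear axes that start at 0. Each point is 1 rat, and the bar and whiskers are the mean and SD of the 6 rats of a group. The groups overlap for every gene, and rat 17 is the highest bPYX+NT3 rat in all 10 panels.

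Between bPYX+GFP and naïve rats 1 of the 10 macrophage genes, *Cx3cr1*, passed an unadjusted p of 0.05 in edgeR's quasi-likelihood test, as did 3.25% of the 11601 genes tested. In bPYX+NT3 rats 0 of 10 passed against naïve rats, beside 6.01% of 11693 genes, and 0 of 10 against bPYX+GFP rats, beside 1.73% of 11623 genes. With adjustment over all genes tested none of the 10 passed in any comparison. The intervals were wide, and that of *C1qa*, which was 1.598 times higher in bPYX+NT3 than in bPYX+GFP rats, ran from 0.861 to 2.96 times. In normalized counts (reads scaled by library size and composition), the coefficient of variation within groups averaged 21.04% for *Csf1* to 51.1% for *C1qa*, and the counting error at the median number of reads was 4.32% for *Mrc1* to 20.4% for *Cx3cr1*. The levels and tests are given below by the role of each gene.

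*Csf1* (NM_023981) encodes the growth factor on which macrophages depend, and is made by many cells, neurons and stromal cells among them. In naïve rats its lowest, median and highest levels were 246.8, 328.3 and 480.2 normalized counts. They were 297.6, 362.9 and 401.3 in bPYX+GFP rats and 296.0, 369.7 and 572.3 in bPYX+NT3 rats. The 3 ranges overlapped, and the naïve group held the lowest rat and the bPYX+NT3 group the highest. On the log2 scale bPYX+GFP differed from naïve rats by 0.04 (SE 0.148), bPYX+NT3 from naïve by 0.20 (SE 0.183) and bPYX+NT3 from bPYX+GFP by 0.17 (SE 0.154), with unadjusted edgeR p-values of 0.815, 0.283 and 0.277.

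*Csf1r* (NM_001029901), the receptor for CSF1 and IL-34, ran from 287.9 to 659.3 normalized counts in naïve rats with a median of 396.4. In bPYX+GFP rats it ran from 230.9 to 580.7 with a median of 397.4, and in bPYX+NT3 rats from 275.3 to 647.7 with a median of 450.7. The group medians lay far closer together than the rats of any group, in which the highest rat had 2.29, 2.52 and 2.35 times the level of the lowest. Its log2 fold changes were -0.07 (95% interval -0.55 to 0.42) between bPYX+GFP and naïve rats, 0.13 (-0.35 to 0.61) between bPYX+NT3 and naïve rats and 0.20 (-0.28 to 0.68) between the injured groups.

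*Cx3cr1* (NM_133534), the receptor for the neuronal chemokine fractalkine, was the scarcest member, with 13 to 58 reads per rat. Its lowest, median and highest levels were 18.9, 28.7 and 44.6 normalized counts in naïve rats, 17.3, 21.999 and 22.98 in bPYX+GFP rats and 15.8, 24.9 and 56.8 in bPYX+NT3 rats. None of the 6 bPYX+GFP rats reached the median of the naïve group, although naïve rat 49 at 18.9 lay among them. The mean level was lower in bPYX+GFP rats, at 21.1 ± 2.26 against 29.4 ± 8.92 normalized counts in naïve rats (SD, n = 6). The log2 fold change was -0.47 (SE 0.203, 95% interval -0.91 to -0.04, unadjusted edgeR p = 0.0354, exact permutation p = 0.0390). The edgeR adjusted p was 0.9998, and with 3.25% of all genes called 1 called gene among 10 is not a result about the members as a group. With DESeq2 the p was 0.0644, and without rats 5, 15, 18, 42, 44 or 45, left out one at a time, the edgeR p was between 0.0510 and 0.106. With NT3, *Cx3cr1* differed by -0.07 (SE 0.308) from naïve and by 0.40 (SE 0.286) from bPYX+GFP rats on the log2 scale, and neither passed.
Markers of other cells moved with this comparison, with 3 of 5 fibroblast markers, 2 of 8 Schwann cell markers and 2 of 5 mast cell markers lower in bPYX+GFP rats at an unadjusted p under 0.05. In the other direction, 11 of 11 sensory neuron markers had the higher estimate in bPYX+GFP rats (median log2 fold change 0.10), and none was called. Of 8 endothelial markers 6 had the higher estimate, and *Tie1* alone was called. The summed fibroblast markers ran from 2120 to 3118 CPM in naïve and from 1938 to 2544 CPM in bPYX+GFP rats, the Schwann cell markers from 2293 to 3470 and from 1954 to 3162 CPM, and the mast cell markers from 80.9 to 88.4 and from 75.8 to 87.9 CPM. No marker of these lists that was in the table was without reads, but the mast cell markers *Tpsb2*, *Tpsab1* and *Mcpt1* had at most 10 reads in every rat. The mast cell marker *Mcpt2* and the fibroblast marker *Col1a2* were not in the table. Their part in the *Cx3cr1* value was not tested, and in bulk tissue fewer macrophages and less RNA per macrophage cannot be told apart.

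*Aif1* (NM_017196) encodes the calcium-binding protein IBA1, the marker most used to stain macrophages and microglia. Its levels ran from 171.2 to 311.9 normalized counts in naïve rats with a median of 226.2, from 116.7 to 283.5 in bPYX+GFP rats with a median of 173.6, and from 147.0 to 347.9 in bPYX+NT3 rats with a median of 171.0. Both injured groups had the lower median, but rat 15 (283.5) lay among the higher naïve rats and rat 17 (347.9) above all of them. Relative to naïve rats the log2 difference was -0.31 (SE 0.209, exact permutation p = 0.175) with GFP and -0.21 (SE 0.215, exact permutation p = 0.320) with NT3, and neither passed edgeR's test. Without rat 15 the former was -0.47 and without rat 17 the latter was -0.42, and both of these passed the unadjusted threshold. Both were the highest rats of their groups, so leaving them out made the difference larger. Whether each value passed thus depended on 1 injured rat, and *Aif1* passed in no other fit that left out 1 rat.

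*Cd68* (NM_001031638), a glycoprotein of the lysosome that macrophages carry in quantity, ran from 25.6 to 93.7 normalized counts in naïve rats, from 27.9 to 81.3 in bPYX+GFP rats and from 31.7 to 124.4 in bPYX+NT3 rats. The medians were 50.3, 50.2 and 59.4. Rats 42, 57 and 17 were the highest of their groups. Its log2 fold changes were -0.06 (SE 0.311), 0.22 (SE 0.349) and 0.29 (SE 0.342) in the order bPYX+GFP against naïve, bPYX+NT3 against naïve and bPYX+NT3 against bPYX+GFP, and none passed the test.

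*Cd163* (NM_001107887) ran from 120.4 to 275.1 normalized counts in naïve rats, from 82.5 to 205.3 in bPYX+GFP rats and from 112.4 to 277.3 in bPYX+NT3 rats, with medians of 182.1, 201.9 and 160.4. Rat 52 was the lowest of all rats and the other 5 bPYX+GFP rats lay between 164.9 and 205.3. *Mrc1* (NM_001106123) ran from 463.4 to 783.0 normalized counts in naïve rats, from 388.2 to 828.1 in bPYX+GFP rats and from 354.3 to 741.8 in bPYX+NT3 rats, with medians of 617.0, 566.6 and 558.5. For both scavenger receptors rat 11 was the lowest bPYX+NT3 rat. The log2 fold changes of *Cd163* were -0.09, -0.08 and 0.01 and those of *Mrc1* 0.00, -0.14 and -0.13, in the order given for *Cd68*. All of their 95% intervals lay between -0.57 and 0.51.

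The C1q chains were higher in bPYX+NT3 than in bPYX+GFP rats in every group median, but not beyond the spread between rats. *C1qa* (NM_001008515) had lowest, median and highest levels of 50.02, 72.8 and 162.9 normalized counts in naïve rats, 36.8, 71.8 and 127.3 in bPYX+GFP rats and 32.6, 100.4 and 225.4 in bPYX+NT3 rats. The bPYX+NT3 group held both the highest rats (rats 17 and 11, at 225.4 and 197.4) and the lowest (rat 39, at 32.6). The log2 fold change of bPYX+NT3 over bPYX+GFP rats was 0.68 (SE 0.414, 95% interval -0.22 to 1.57, exact permutation p = 0.314) and over naïve rats 0.51 (SE 0.409, exact permutation p = 0.478). The former passed edgeR's unadjusted threshold without rat 57 (0.90) or without rat 39 (0.87), omissions that made it larger. It did not pass without rat 11, without rat 17 or without rats 11 and 57 together. The bPYX+NT3 rats 2, 23 and 40, at 114.8, 85.9 and 67.1 normalized counts, lay within the range of the bPYX+GFP rats.
*C1qb* (NM_019262) ran from 84.5 to 221.3 normalized counts in naïve rats, from 73.6 to 198.0 in bPYX+GFP rats and from 88.8 to 285.2 in bPYX+NT3 rats, with medians of 138.0, 134.4 and 161.5. *C1qc* (NM_001008524) ran from 78.9 to 153.7 in naïve, from 48.2 to 131.4 in bPYX+GFP and from 66.1 to 189.1 in bPYX+NT3 rats, with medians of 100.0, 96.5 and 110.9. All 3 groups overlapped for both chains. From bPYX+GFP to bPYX+NT3 rats the log2 difference was 0.41 (SE 0.291, exact permutation p = 0.273) for *C1qb* and 0.28 (SE 0.273, exact permutation p = 0.424) for *C1qc*.

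**Figure D2:**
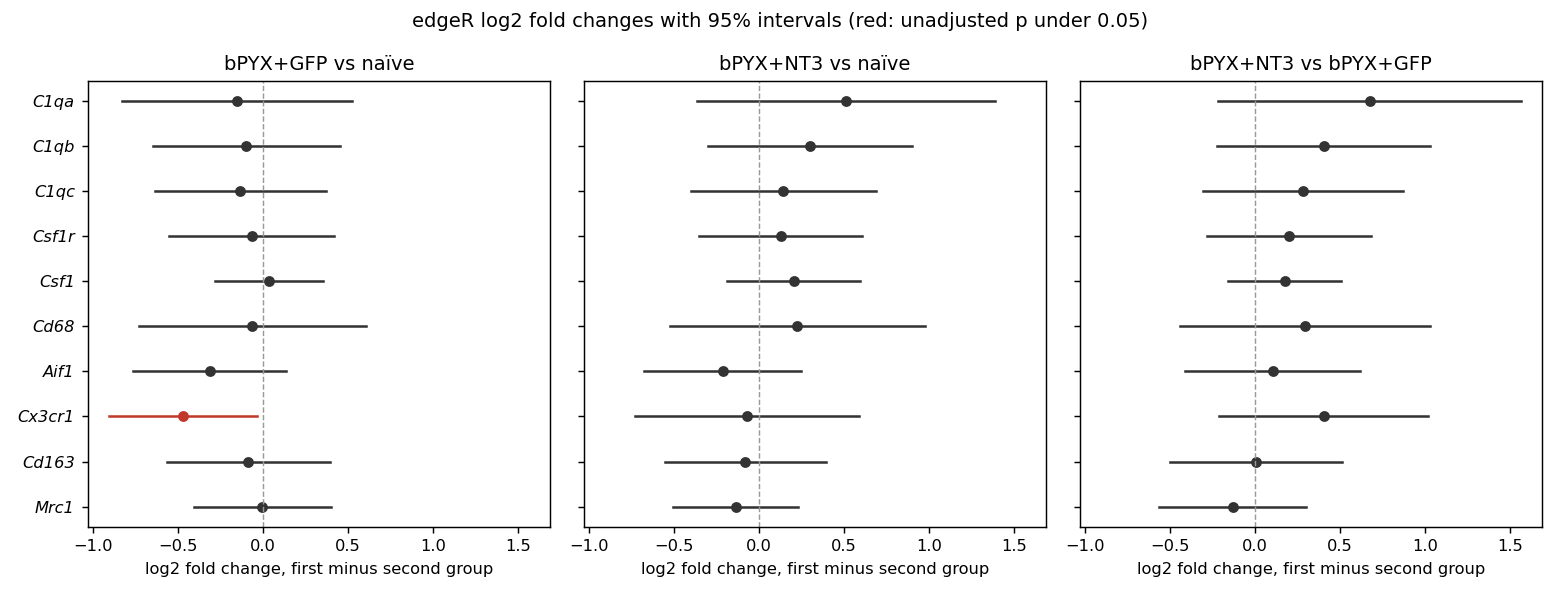
Log2 fold change of each of the 10 macrophage genes in the 3 comparisons. Points are edgeR estimates and bars their 95% intervals. Only the interval of *Cx3cr1* between bPYX+GFP and naïve rats leaves out 0.

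Over the 10 members, 1 was higher and 9 were lower in bPYX+GFP than in naïve rats, with a median log2 fold change of -0.09 beside 0.01 over all genes tested. This direction turned on 1 library, since 7 of 10 were higher without rat 42 (median 0.08) and 6 of 10 without rat 52 (median 0.03). Between bPYX+NT3 and naïve rats 6 were higher and 4 lower, with a median of 0.14 beside 0.00. With the share of reads on no gene as a covariate the median was -0.03 with 4 of 10 higher, and without rat 17 it was -0.05 with 4 of 10 higher. From bPYX+GFP to bPYX+NT3 rats 9 were higher and 1, *Mrc1*, was lower, with a median of 0.24 beside 0.00. That median was 0.14 with the covariate, 0.14 without rat 52 and 0.07, with 6 of 10 higher, without rat 17. The 3 comparisons share rats, so these directions are not independent of each other, and members that vary together across rats do not count as separate observations. With the groups of the titles the medians against naïve and against bPYX+GFP rats were -0.32 and -0.23 for bPYX+NT3 rats, the opposite direction. The fold changes that the study itself lists follow the groups of the heading, as given above. The single-gene exact permutation tests gave a p under 0.05 in 1 of 30 tests, that of *Cx3cr1* above, and groups of 6 and 6 rats could give no p below 0.00216.

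The rats of a group differed in nearly all members at once. Rat 17 was the highest bPYX+NT3 rat for 10 of 10 members and the highest of all 18 rats for 8. Rat 42 was the highest naïve rat for 9 members, and rat 49 the lowest for 7. Among bPYX+GFP rats, rat 57 was the highest for 6 members and rat 52 the lowest for 7, and rat 39 was the lowest bPYX+NT3 rat for 7. The median over the members of a rat's deviation from its group mean was 0.79 on the log2 scale for rat 17, 0.60 for rat 42, -0.72 for rat 52 and -0.65 for rat 39. The SD of this median deviation between the rats of a group was 0.436.

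**Figure D3:**
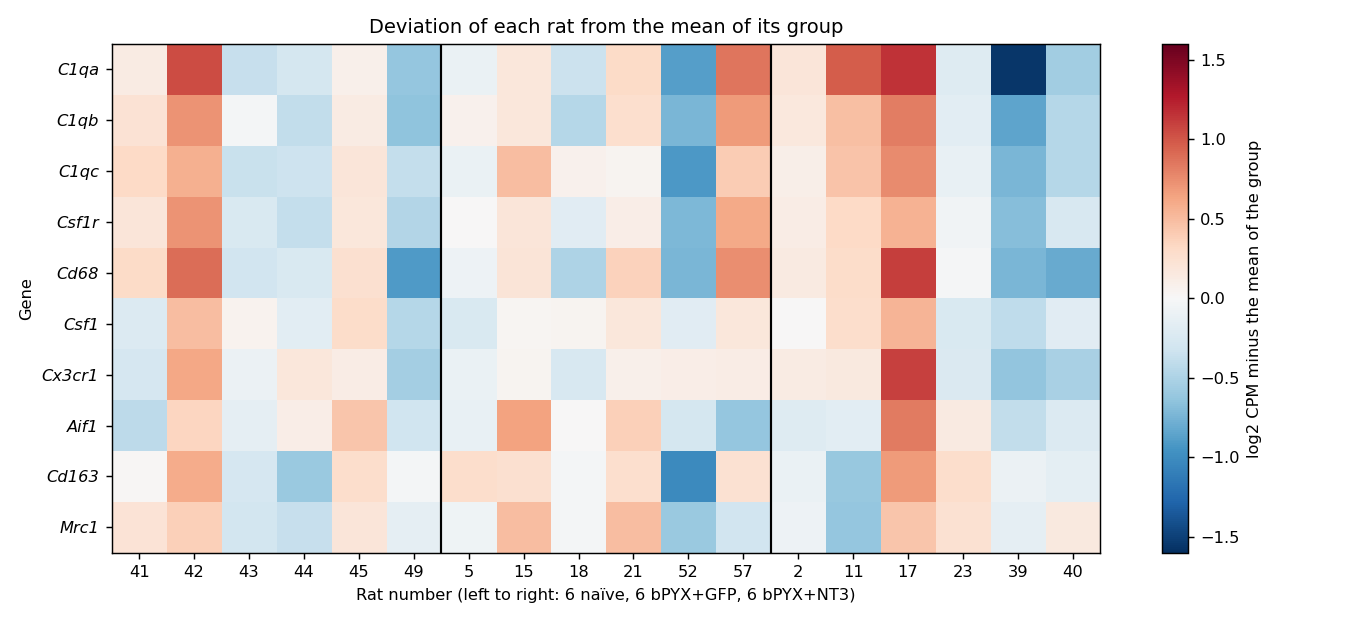
Deviation of each macrophage gene from its group mean in each rat, in log2 CPM. Colour gives the deviation, red above and blue below the mean, with rats in columns and genes in lines. Rats 17 and 42 are high for all 10 genes, whereas rat 11 is high for the C1q genes and low for *Mrc1* and *Cd163*.

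Whether the members rose and fell together was examined across the 18 rats on log2 CPM. Of the 45 pairs of members all 45 had a positive Pearson r, from 0.204 to 0.965 with a median of 0.646. On values centred on the group means the median was 0.663, and it was 0.800 within naïve, 0.604 within bPYX+GFP and 0.853 within bPYX+NT3 rats. In 19 of the 45 pairs the permutation p, adjusted over all 11820 other genes, was under 0.05 from both sides. Genes of one library share its depth and its cells, and the background was broad for some members. With *C1qb*, 54.7% of all genes had an adjusted p under 0.05 in either direction, with *Csf1r* 48.9% and with *C1qc* 22.8%, but with *Mrc1* 0.102% and with *Cd163* 0.

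**Figure D4:**
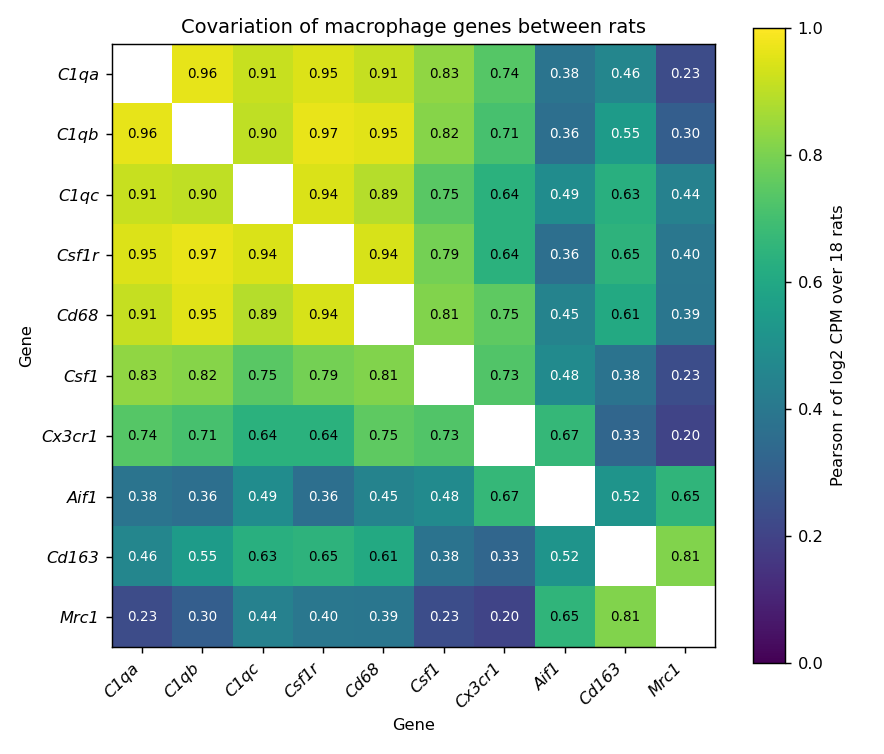
Pearson r across the 18 rats for each pair of the 10 macrophage genes, on log2 CPM. *C1qa*, *C1qb*, *C1qc*, *Csf1r* and *Cd68* form a block with r of at least 0.887, and *Mrc1* has lower r with these genes than with *Cd163*.

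The tightest covariation joined the C1q chains, *Csf1r* and *Cd68*. *C1qb* and *Csf1r* had r = 0.965 and rho = 0.965 over 18 rats (permutation p = 1e-05, the smallest the resamples can give, adjusted p = 0.000385). Their r was 0.966, 0.963 and 0.991 within the 3 groups of 6 rats and 0.955 without rats 17 and 52, the pair farthest from the median of *C1qb*. *Csf1r* ranked first among all genes by r with *C1qb* and with *C1qc*, and *C1qb* ranked first with *C1qa* (r = 0.962) and with *Cd68* (r = 0.955). Of all genes, 10.3% had an r over 0.7 with *C1qb*. The reads on *C1qb* were 0.266 to 0.440 times those on *Csf1r* in every rat, a ratio with an SD of 0.165 on the log2 scale whose differences between groups did not pass the exact permutation test (p = 0.587, 0.221 and 0.128).

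The ligand *Csf1* followed its receptor less closely, with r = 0.791 and rho = 0.732 (permutation p = 9e-05, adjusted over all genes tested with *Csf1* 0.0128 for r and 0.118 for rho), and r = 0.728 without rats 17 and 49. Within the groups this r was 0.796, 0.651 and 0.936. Adjusted over all genes tested with *Csf1r*, the permutation p was 0.00204 for r and 0.00511 for rho. *Cx3cr1* with *Cd68* had r = 0.752 and rho = 0.688 (permutation p adjusted over all genes tested with *Cx3cr1* 0.0283 and 0.104), and r was 0.514 without rats 17 and 42. Adjusted over all genes tested with *Cd68*, the permutation p was 0.00634 and 0.0115. The background was broad on these sides, with 48.9% of all genes passing with *Csf1r* and 32.6% with *Cd68*. *Aif1* and *Cx3cr1*, both used to mark the same cells, had r = 0.667 (adjusted permutation p = 0.0728), with 0.822 and 0.853 in naïve and bPYX+NT3 rats and -0.106 in bPYX+GFP rats.

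*Mrc1* and *Cd163* varied together. Their r was 0.812 and rho 0.779 (permutation p = 5e-05, adjusted over all genes tested with *Mrc1* 0.0492 and with *Cd163* 0.0788), and r was 0.925, 0.692 and 0.920 within the groups. *Mrc1* had rank 3 among all genes by r with *Cd163*, whose share of genes with an r over 0.7 was 0.364%. *Mrc1* with *C1qb* had r = 0.299 and rho = 0.311 (permutation p = 0.228). That value rested on rats 11 and 57: without them r was 0.675, and within the groups it was 0.806, 0.404 and 0.057. *Mrc1* with *C1qc* had an r of 0.956 within naïve rats, above its 0.925 with *Cd163*, 0.628 within bPYX+GFP and 0.053 within bPYX+NT3 rats, and 0.787 without rats 11 and 57. The reads on *C1qb* were 0.634 times those on *Mrc1* in rat 11 and 0.420 in rat 57, against a median of 0.219 and a lowest value of 0.155 in rat 18. The ratio was higher by 0.48 on the log2 scale in bPYX+NT3 than in bPYX+GFP rats, within the spread (exact permutation p = 0.210).

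**Figure D5:**
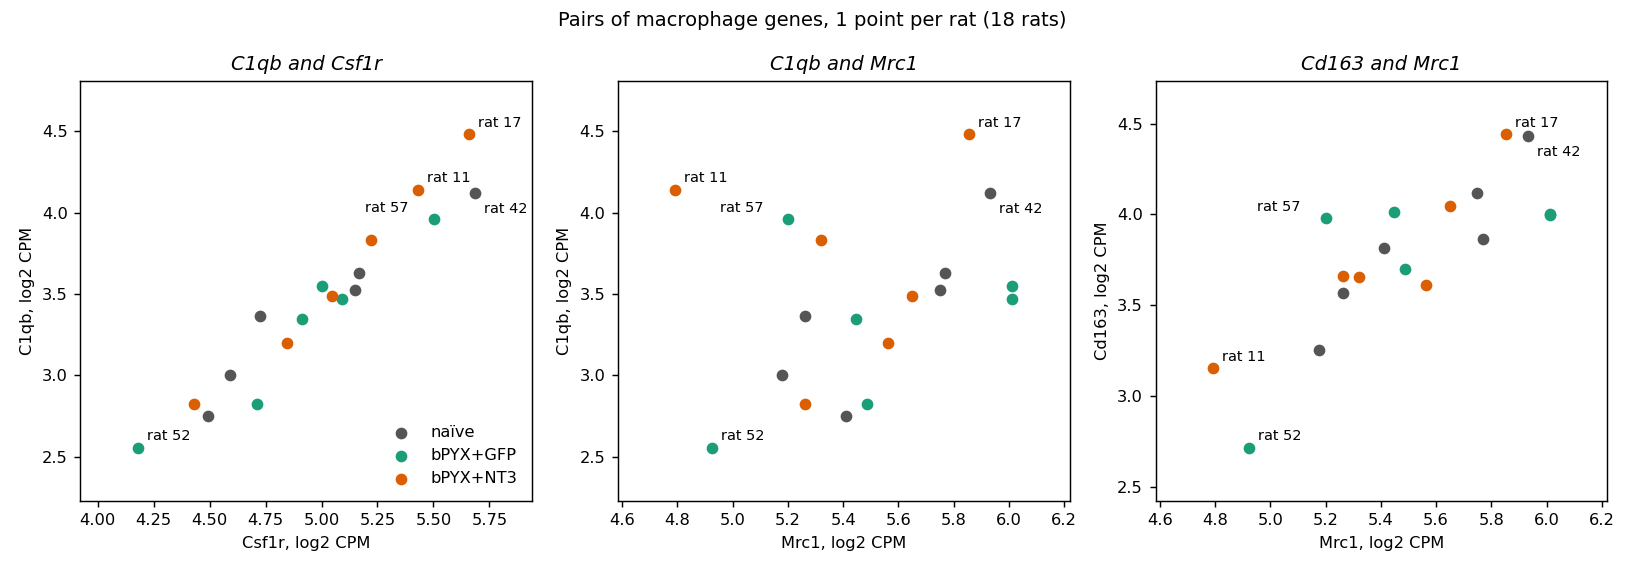
Levels of 3 pairs of macrophage genes in the 18 rats, in log2 CPM, coloured by group. *C1qb* follows *Csf1r* in every group and *Cd163* follows *Mrc1*, whereas rats 11 and 57 lie off the trend of *C1qb* with *Mrc1*.

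Other cell types and library measures moved with the members, as tested in 60 relations of *C1qb*, *Csf1r*, *Mrc1* and *Aif1* over 18 rats with permutation p-values adjusted over the 60. *C1qb* had r = 0.859 (rho = 0.794, adjusted p = 0.0003) with the summed level of 6 mural cell markers and r = 0.740 (rho = 0.690, adjusted p = 0.00735) with that of 8 endothelial markers, 0.796 and 0.564 without the 2 farthest rats. The mural markers ran from 123 to 267 CPM in naïve, 117 to 213 in bPYX+GFP and 132 to 254 in bPYX+NT3 rats, and the endothelial markers from 199 to 271, 211 to 253 and 199 to 298 CPM. *C1qb* also had r = -0.676 with the share of reads on no gene (rho = -0.705, adjusted p = 0.015), which was -0.642 without rats 11 and 57, and r = 0.604 with the total reads (rho = 0.637, adjusted p = 0.04085). Its r was 0.682 with the mast cell markers (rho = 0.641, adjusted p = 0.016), 0.535 without the 2 farthest rats. With the share of reads on more than 1 gene it was 0.583 (adjusted p = 0.0414, and 0.051 for rho = 0.589). *Csf1r* had r = 0.851, 0.728 and 0.662 with the mural, endothelial and mast cell markers, and -0.621 with the share of reads on no gene. The summed mast cell level did not follow all of its markers. Its group medians were 84.8, 77.9 and 82.1 CPM in naïve, bPYX+GFP and bPYX+NT3 rats. Against naïve rats, the 5 mast cell markers tested had a median log2 fold change of -0.705 in bPYX+NT3 rats. The r values with this sum therefore need not reflect mast cells.
*Mrc1* instead had r = 0.667 (rho = 0.604, adjusted p = 0.0167) with the fibroblast markers and r = -0.669 (rho = -0.697, adjusted p = 0.01605) with the sensory neuron markers, 0.496 and -0.531 without the 2 farthest rats. *Aif1* had r = -0.743 (rho = -0.767, adjusted p = 0.0066) with the sensory neuron markers, and -0.746 without rats 11 and 57. In the 3 groups the fibroblast markers ran to 3118, 2544 and 2826 CPM and the neuron markers to 13808, 15934 and 15862 CPM. The part of vessels, mast cells, connective tissue, neurons or library quality in the covariation of the members was not tested.

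The genes most like the members were found by their r, centred on the group means over 18 rats, with the mean standardised level of the 9 members other than *Csf1*. Of 11821 genes, 2.47% had an r over 0.7 and 12 had an r over 0.9, of which 4 were members, which are themselves part of the mean. The nearest genes that were no members were *Ifi30* (0.949), an enzyme that reduces disulfides for antigen processing, *Clec10a* (0.949), a galactose-binding lectin of macrophages and dendritic cells, and the complement protease *C1r* (0.945), which binds C1q. They were followed by *Csf2rb* (0.922), *Cd4* (0.920), which in rats is found on macrophages as well as T cells, NM_001024771 (0.915), *Parvg* (0.914), *C4b* (0.914), *Fcer1g* (0.899) and NM_001106031 (0.895). *C4b* is uncertain, since it has a near-identical copy, *C4a*, and reads that fit several locations were not counted.

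Genes that work with the members were followed in 7 lists of 111 genes, of which 97 were in the table. In likeness to the members, 10 of 17 complement components and receptors had a centred r over 0.7 (median 0.775), 7 of 15 phagocytic and Fc receptors (median 0.683) and 7 of 18 lineage and signalling genes (median 0.642), among them *Tyrobp* (0.863) and *Laptm5* (0.844). Of 15 lysosome and antigen processing genes 3 did, *Ctss* (0.892), *Lyz2* (0.860) and *Cd74* (0.839), with a median of 0.274. *C1qbp*, a mitochondrial protein that can bind C1q, had -0.716, and *Cd55*, a membrane inhibitor of complement, -0.579. Of 7 genes enriched in microglia 1 did (median 0.459), of 9 monocyte and inflammatory genes 3 (median 0.521) and of 4 partners of CSF1 and fractalkine 1 (median 0.538).

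A small number of these companion genes passed the unadjusted threshold, and their shares are read beside those of all genes. Between bPYX+GFP and naïve rats 1 of 83 tested was higher and 2 were lower, beside 3.25% of all genes. *Mertk*, a receptor by which macrophages and satellite glia engulf dying cells, fell from 402.6, 502.2 and 552.2 normalized counts (lowest, median and highest) in naïve rats to 300.5, 393.6 and 415.5 in bPYX+GFP rats. The ranges overlapped at their edges only. The log2 fold change was -0.38 (SE 0.106, edgeR adjusted p = 0.822), and it passed the unadjusted threshold in 12 of 12 fits that left out 1 rat. *Arg1*, an arginase used to mark alternatively activated macrophages, fell by 1.01 on the log2 scale (SE 0.354, edgeR adjusted p = 0.9998), from a median of 74.0 to one of 39.2 normalized counts. Its range in bPYX+GFP rats, 29.2 to 53.3, lay within that of the naïve rats, 23.3 to 148.3. The cells that its reads came from were not tested. *Gpnmb*, a glycoprotein of lipid-laden phagocytes and of other cells, was higher by 0.88 (SE 0.355, edgeR adjusted p = 0.9998). Its medians were 305.5 in naïve and 313.1 in bPYX+GFP rats and the highest bPYX+GFP rat had 1190 normalized counts. The difference was 0.48 without rat 57, 0.69 without rat 15, 0.84 without rat 43 and 0.83 without rat 49, and none of these passed.

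Between bPYX+NT3 and naïve rats 2 of 84 companion genes were higher and 2 lower, beside 6.01% of all genes. *Mertk* was again lower, at 292.3, 385.8 and 488.0 normalized counts (log2 fold change -0.33, SE 0.115), and *Maf*, a transcription factor of resident macrophages and of sensory neurons, differed by -0.24 (SE 0.0924) on the log2 scale. *Ctsz*, a lysosomal protease, was higher by 0.30 (SE 0.133) and *Cx3cl1*, the ligand of CX3CR1, by 0.63 (SE 0.279), from 25.9 to 39.2 normalized counts in naïve rats and from 28.6 to 91.3 in bPYX+NT3 rats. The edgeR adjusted p of all 4 was 0.607. In fits that left out 1 rat, *Ctsz* passed in 6 of 12 and *Cx3cl1* in 5 of 12. From bPYX+GFP to bPYX+NT3 rats 1 of 83 was higher and 1 lower, beside 1.73% of all genes. *Arg1* was higher by 1.095 on the log2 scale (SE 0.316, edgeR adjusted p = 0.851), with 54.3 to 186.2 against 29.2 to 53.3 normalized counts. The naïve rats, at 23.3 to 148.3, overlapped both of these groups. *Gpnmb* was lower, with -0.91 (SE 0.352, edgeR adjusted p = 0.851). The value for *Gpnmb* was -0.51 without rat 57 and -0.72 without rat 15, and neither passed. With adjustment over all genes tested, 0 companion genes passed in any comparison. In likeness to the members, the called genes had a centred r of 0.631 (*Arg1*), 0.598 (*Ctsz*), 0.478 (*Gpnmb*), 0.306 (*Mertk*), 0.265 (*Cx3cl1*) and -0.218 (*Maf*). The most abundant gene of each list was *Il34* (mean 205.1 normalized counts in naïve rats), *Cd59b* (17973), *Maf* (558.0), *Gas6* (1136), *Ctsb* (23316), *Olfml3* (322.3) and *Ccl2* (413.7), and of these only *Maf* was called, in bPYX+NT3 against naïve rats.
Markers of other cells also moved with the NT3 comparisons. Against naïve rats, 3 of 5 mast cell markers (*Cpa3*, *Cma1* and *Ms4a2*), 3 of 5 fibroblast markers (*Col1a1*, *Col3a1* and *Dcn*), 1 of 2 adipocyte markers (*Adipoq*) and *Pmp22* were lower and *Flt1* was higher at an unadjusted p under 0.05. Against bPYX+GFP rats, both adipocyte markers tested (*Adipoq* and *Fabp4*) and *Cpa3* were lower and *Acta2* and *Kcnj10* were higher, and 6 of 6 mural cell markers had the higher estimate, of which *Acta2* alone was called. The summed adipocyte markers ran from 1.89 to 47.7 CPM in naïve, 2.65 to 79.9 in bPYX+GFP and 1.90 to 13.7 in bPYX+NT3 rats, and the fibroblast markers in bPYX+NT3 rats from 1732 to 2826 CPM. Their part in the values of the macrophage and companion genes was not tested.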

How the data were processed

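Poly(A) RNA of the C6-C8 DRG of 18 rats was measured, with 6 rats in each group. The authors aligned paired-end reads to Rnor_6.0 with TopHat 2, removed duplicate reads with Picard, counted read-pairs per RefSeq identifier with HTSeq, and deposited counts per rat and in a table of all rats as whole numbers without normalization (tools and build per the labels and the study's methods). The per-rat counts were identical to the table's columns in 18 of 18 rats. The lines for unassigned reads entered neither the library sizes nor the fits. Symbols were matched through RefSeq for 14193 of 15075 identifiers.

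Each pair of groups was fitted in R 4.3.3 with edgeR 4.0.16 (TMM, estimateDisp, glmQLFit and glmQLFTest, two-sided, no covariate), over genes that exceeded 10 reads in 6 or more of the 12 rats, with Benjamini-Hochberg adjustment over the genes tested. A gene was called at an unadjusted p under 0.05, the threshold of the study. The SE was obtained from the log2 fold change and edgeR's F. Counts were normalized by scaling them by TMM library size to the mean size over the rats. Levels of single members, as log2 CPM with a prior count of 2, were put to a two-sided exact permutation test. Correlations over the 18 rats used the 11821 genes that exceeded 10 reads in 6 or more rats, 100000 resamples and adjustment over all genes with that member. Rats are separate animals and the labels give no batch. The fits and correlations were tested on simulated data. The number of reads sets the counting error given in the report.

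The members and the gene lists were chosen with earlier results of these data known. The genes named are the 10 members, the companion genes with p under 0.05 and the most abundant gene of each companion list, and the 10 genes most like the members. *C1qbp*, *Cd55* and the other genes named for their likeness within a list were chosen after their values were seen. The alternatives tried were DESeq2 1.42.0, in edgeR the likelihood ratio test, scaling by library size alone or by the size factors of DESeq2, other filters, robust estimation, a single model of all groups, a covariate for the no-feature share, a replicate block, the groups of the titles, a prior count of 0.5 and leaving out each rat. Leaving out rats 11 and 57 together was chosen after seeing the data. Correlations and figures were made in Python 3.11.15 (scipy 1.17.1, numpy 2.4.6, pandas 2.3.3, matplotlib 3.10.9). Small RNAs were not analysed here. Some single marker genes of other cells are not reported here.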

Additional observations from a re-analysis of the deposited data

Results flagged for a closer look

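Of the 30 sets of 6 rats formed by the 10 members and the 3 groups, 1 held a rat far from the others by Dixon's test. *Cd163* in bPYX+GFP rat 52 had 82.5 normalized counts, the next lowest rat of that group had 164.9, and this gap was 0.7585 of the whole range of the group, against a critical value of 0.625. Chance flags about 1 in 20 such groups. Rat 52 was the lowest bPYX+GFP rat for 7 of the 10 members.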

How the results depend on the processing

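Under the alternatives that keep all rats or leave out rats 11 and 57, no member moved past the unadjusted threshold except with the groups of the titles, and the call of *Cx3cr1* between bPYX+GFP and naïve rats was lost (0 members called) with DESeq2, with 1 fit over the 3 groups, with the groups of the titles and with the replicate block. The direction of members that were not called changed in 7, 8 and 8 of 120 values in the order bPYX+GFP against naïve, bPYX+NT3 against naïve and bPYX+NT3 against bPYX+GFP, and in 21, 7 and 7 of 120 values when 1 rat was left out. The number of all genes called, 377, 703 and 201 in the same order, moved to 848 for bPYX+GFP against naïve when the no-feature share was a covariate, to 315 for bPYX+NT3 against bPYX+GFP without a filter, to 174 and 330 for the comparisons with naïve rats with the groups of the titles, and to 595, 365 and 1462 without rats 11 and 57. When each rat was left out in turn it ran from 272 to 595, from 365 to 1387 and from 95 to 2291 (without rat 57), the members called from 0 to 1 in each comparison, their median log2 fold change from -0.22 to 0.08, -0.05 to 0.30 and 0.07 to 0.36, and the median r over the 45 pairs from 0.555 (without rat 17) to 0.725 (without rat 11). That median was 0.758 without rats 11 and 57 and 0.685 with library size alone.

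With the groups of the titles, 1 member was called in bPYX+NT3 against naïve rats (*C1qc*, a log2 fold change of -0.55) and 1 against bPYX+GFP rats (*Mrc1*, -0.40), with member medians of -0.32 and -0.23. The called companion genes reversed with it, except *Arg1* between bPYX+GFP and naïve rats, which kept its sign. In that comparison *Mertk* went to 0.11 and *Gpnmb* to -0.42. Between bPYX+NT3 and naïve rats *Mertk* went to 0.24, *Maf* to 0.18, *Ctsz* to -0.27 and *Cx3cl1* to -0.49. In bPYX+NT3 against bPYX+GFP rats *Arg1* went to -0.051 and *Gpnmb* to 0.54. The study lists *Arg1* as higher and *Gpnmb* as lower in that comparison. These are the signs given by the heading's groups and not by the titles' groups. Over all alternatives that did not leave out 1 rat, 3 of 36, 4 of 48 and 2 of 24 values of called companion genes kept their sign but no longer passed, in the same order of comparisons. These groups hold other rats by construction. The cause of the other moves was not tested.

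The replicate numbers follow the order of rat numbers and name no shared animal or day, so they were not taken as pairs. The deviations of same-numbered rats correlated at over 0.1 in 2 of 6 pairs of bPYX+GFP with naïve rats (r from -0.37 to 0.32), in 5 of 6 pairs of bPYX+NT3 with naïve rats (0.29 to 0.53, and -0.30 for number 3) and in 3 of 6 pairs of bPYX+NT3 with bPYX+GFP rats (-0.40 to 0.50). In 5 of the 18 pairs a rat correlated best with its own number, 3 of them in bPYX+NT3 against naïve. With the replicate block the number of all genes called was 316, 2962 and 130. For *Cx3cr1*, with 13 to 58 reads per rat, depth limits what can be seen.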
